A study of Mus musculus with 16 samples.

Results

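Zscan4 and Dux mark the mouse 2-cell embryo, and their transcripts were followed by clone, day and 4-hydroxytamoxifen (OHT) treatment in embryonic stem (ES) cells from which Rybp was removed. The genes Zscan4a, Zscan4c, Zscan4d, Zscan4f and Duxf3 were represented by 3 of the 45037 probe sets, namely every probe set whose gene symbol field holds any of these 5 names. They were chosen by their difference between KO and control in these same arrays, so that difference is described below without a test. Dux is a double homeobox transcription factor that is made as the embryo starts its own transcription, and it binds and switches on Zscan4 and other genes and retroviral repeats of that stage. Zscan4 proteins carry a SCAN domain and zinc fingers, and in ES cell cultures they are made in short bursts in a minority of cells, where they have been linked to telomere lengthening. Rybp is a subunit of variant Polycomb repressive complex 1 (PRC1), which silences genes through ubiquitination of histone H2A.

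The ES cells were 129/B6 hybrids of clones 10 and 15, grown with serum and leukaemia inhibitory factor. KO cells had been given OHT at 800 nM for 24 hours to deplete Rybp, and control cells of the same clones had received none, so an effect of OHT itself cannot be told apart from an effect of Rybp loss. Total RNA was hybridised at day 4 and day 12 to Affymetrix Mouse Genome 430 2.0 arrays, on which a probe set is a group of short oligonucleotides that reports 1 transcript or several similar ones. KO day 4, control day 4, KO day 12 and control day 12 had 4 arrays each, 2 of either clone, numbered replicate 1 and replicate 2. Whether the replicates came from separate cultures is not given, nor which arrays are of cells on fibroblast feeders and which of cells on gelatin, and the p-values therefore cover only the spread seen among these arrays. Values are the deposited linear intensities, whose median on every array was 93.3 and whose 25th percentile was 28.2.

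The first of the Rybp probe sets read 84.9 to 125 in KO day 4 cells, against 2047 to 3319 in control day 4 cells, and 109 to 256 in KO day 12 cells, against 2749 to 3434 in control day 12 cells. Another Rybp probe set was higher in KO, with means of 6002 in KO and 1363 in control cells at day 4 and 4199 in KO and 960 in control cells at day 12. Its control arrays were uneven, at 255 to 2771 at day 4 and 157 to 2108 at day 12. Its KO arrays read 4374 to 7612 and 2815 to 5148. ES cell markers were bright on every array, and the summed intensity of 10 of them spanned 108953 to 139351. The sum of 10 feeder fibroblast markers was 1103 to 2503 in KO and 1207 to 1895 in control cells at day 4, and 1819 to 2775 in KO and 1765 to 2279 in control cells at day 12, with none of the 10 passing the test between KO and control. The sum of 8 primitive endoderm markers was 813 to 2454 in KO and 761 to 2154 in control cells at day 4, and 10528 to 17427 in KO and 7134 to 11604 in control cells at day 12, again with none passing. Lum and Dcn were the dimmest feeder markers, with group means of 16.7 to 50.5, and no marker of any list was at 0. The sum of 8 trophectoderm markers was 4029 to 4791 in KO and 3692 to 4058 in control cells at day 4. It was 6576 to 10731 in KO and 6539 to 8795 in control cells at day 12. There 2 of the 8 passed the test and were higher, beside 0.877% of all probe sets. The sum came mostly from Krt8, Krt18 and Tfap2c and does not show which markers passed. Cdx2 and Gata3 had the largest ratios of day 12 means, at 46.7 and 47.5 in KO against 7.34 and 8.54 in control cells. Both control means lay under the low intensity of 28.2 given above. Eomes and Elf5 had lower means in KO day 12 cells. The log2 ratio of the 3′ to the 5′ control probe sets of the transferrin receptor, a measure of RNA quality, averaged 1.26 ± 0.19 in KO and 1.06 ± 0.09 in control cells at day 4 (SD, n = 4 each) and 1.17 ± 0.12 in KO and 1.19 ± 0.14 in control cells at day 12. The part of these markers and of RNA quality in the results below was not tested.

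The probe sets do not separate the gene copies. Probe set 1457033_at carries 6 symbols, namely Zscan4a, Zscan4c, Zscan4d and Zscan4f on chromosome 7 and the predicted genes LOC100862413 and LOC100862415 on chromosome 6. RefSeq classes Zscan4a as a transcribed pseudogene and the other 5 as protein coding. Probe set 1453700_s_at, called the shared Dux probe set below, carries Duxf3, the Dux gene on chromosome 10, with its neighbours Gm4981 and Gm9919. Probe set 1430931_at, called the Duxf3-only probe set below, carries Duxf3 alone, but it was designed from the same sequence record as the shared one, so the Dux pair are not independent measurements. A change of the first is therefore called a change of the Zscan4 copies, without saying which of them moved. Both more expressing cells and more RNA in each cell can raise a bulk signal, and these arrays cannot tell them apart.

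The promoters of the Zscan4 copies are shown because the copies share them almost letter for letter. The sequences are from RefSeq, build GRCm38.p6, 160 bases ending at the base before the annotated transcript start, 5′ to 3′ on the gene's strand. Capitals mark matches to TGATNNAATCA, a spaced palindrome of the kind bound by double homeobox factors, and to the common TATA box written TATAAA. The 4 windows are Zscan4c at chr7:11005585-11005744 on the plus strand, Zscan4d at chr7:11166149-11166308 on the minus strand, Zscan4f at chr7:11397755-11397914 on the plus strand and Duxf3 at chr10:58233090-58233249 on the minus strand.
Zscan4c: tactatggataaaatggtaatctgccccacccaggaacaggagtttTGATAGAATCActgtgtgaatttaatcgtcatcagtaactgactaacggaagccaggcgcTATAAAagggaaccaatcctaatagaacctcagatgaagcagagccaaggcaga
Zscan4d: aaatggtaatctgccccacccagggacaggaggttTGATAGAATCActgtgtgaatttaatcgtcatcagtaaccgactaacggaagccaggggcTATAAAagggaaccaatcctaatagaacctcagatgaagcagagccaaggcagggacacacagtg
Zscan4f: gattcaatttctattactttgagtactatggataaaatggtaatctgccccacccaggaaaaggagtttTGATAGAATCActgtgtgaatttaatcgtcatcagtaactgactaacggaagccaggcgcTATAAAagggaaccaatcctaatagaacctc
Duxf3: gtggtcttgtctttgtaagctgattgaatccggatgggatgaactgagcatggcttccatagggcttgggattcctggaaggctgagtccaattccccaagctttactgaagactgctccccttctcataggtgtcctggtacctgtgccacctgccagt
Aligned over 266 to 289 bases of their promoter entries, Zscan4c and Zscan4f were 99.3% identical, Zscan4c and Zscan4d 97.2%, and Zscan4d and Zscan4f 97.4%. The Zscan4 promoters hold TGATAGAATCA on the plus strand, beginning at position -114 of Zscan4c, -125 of Zscan4d and -91 of Zscan4f relative to the transcript start, and a TATA box beginning at -54, -65 and -31 of the same genes. Because the copies are near-identical, these matches are a single observation and not 3. The palindrome, searched on both strands of the 250 bases before each start, was found in 58 of 32851 mouse promoters (0.177%), and TATAAA in 4063 (12.4%). The palindrome was picked after these promoters had been read. The Duxf3 window has neither match. A match is a description of the letters and not a bound site.

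Dux transcripts were higher on every KO array than on any control array of the same day. The shared Dux probe set read 275 and 126 in clone 10 and 551 and 215 in clone 15 in KO day 4 cells, against 42.5 and 31.4 in clone 10 and 42.3 and 52.0 in clone 15 in control day 4 cells. In KO day 12 cells it read 323 and 395 in clone 10 and 253 and 312 in clone 15, against 27.3 and 76.3 in clone 10 and 47.2 and 61.2 in clone 15 in control day 12 cells. Every KO array lay above every control array at both days, and all controls lay under the median of the array. Over all probe sets, every KO array lay above every control array for 2.35% at day 4 and 5.3% at day 12. The members were chosen on this contrast, so nothing is read from their count. The fitted log2 difference was 2.61 ± 0.40 (SE, n = 4 arrays a group) at day 4 and 2.68 ± 0.40 at day 12. Within the 8 pairs of one clone, day and replicate number, KO was 4.02 to 13.03 times the control.

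The Duxf3-only probe set varied more between arrays. In KO day 4 cells it read 92.4 and 70.3 in clone 10 and 370 and 97.2 in clone 15, against 38.3 and 15.4 in clone 10 and 32.9 and 24.98 in clone 15 in control day 4 cells. In KO day 12 cells it read 73.5 and 170 in clone 10 and 113 and 123 in clone 15, against 53.5 and 48.7 in clone 10 and 6.17 and 39.8 in clone 15 in control day 12 cells. The groups again did not overlap at either day, but the gap at day 12 was small, with the lowest KO array at 73.5 and the highest control array at 53.5. The log2 difference was 2.23 ± 0.69 (SE) at day 4 and 2.02 ± 0.69 at day 12, and the pairs spanned 1.37 to 18.3 times. The widest pair is the one with the control array at 6.17. Without that array, clone 15 replicate 1, the day 12 difference was 1.23, and without the KO day 4 array of clone 15 replicate 1, the one at 370, the day 4 difference was 1.65. With every value under the 25th percentile raised to it, the differences were 1.97 at day 4 and 1.47 at day 12.

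The Zscan4 copies were higher in KO than in control cells in both clones and at both days. In KO day 4 cells their probe set read 5621 and 4587 in clone 10 and 12881 and 6644 in clone 15, against 62.4 and 48.2 in clone 10 and 166 and 95.9 in clone 15 in control day 4 cells. In KO day 12 cells it read 9948 and 11399.5 in clone 10 and 10603 and 11241 in clone 15, against 74.7 and 125 in clone 10 and 114 and 119 in clone 15 in control day 12 cells. No control array came near any KO array, and the control values stood around the median of the array. The fitted log2 difference was 6.37 ± 0.30 (SE, n = 4 arrays a group) at day 4 and 6.67 ± 0.30 at day 12.

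**Figure D1:**
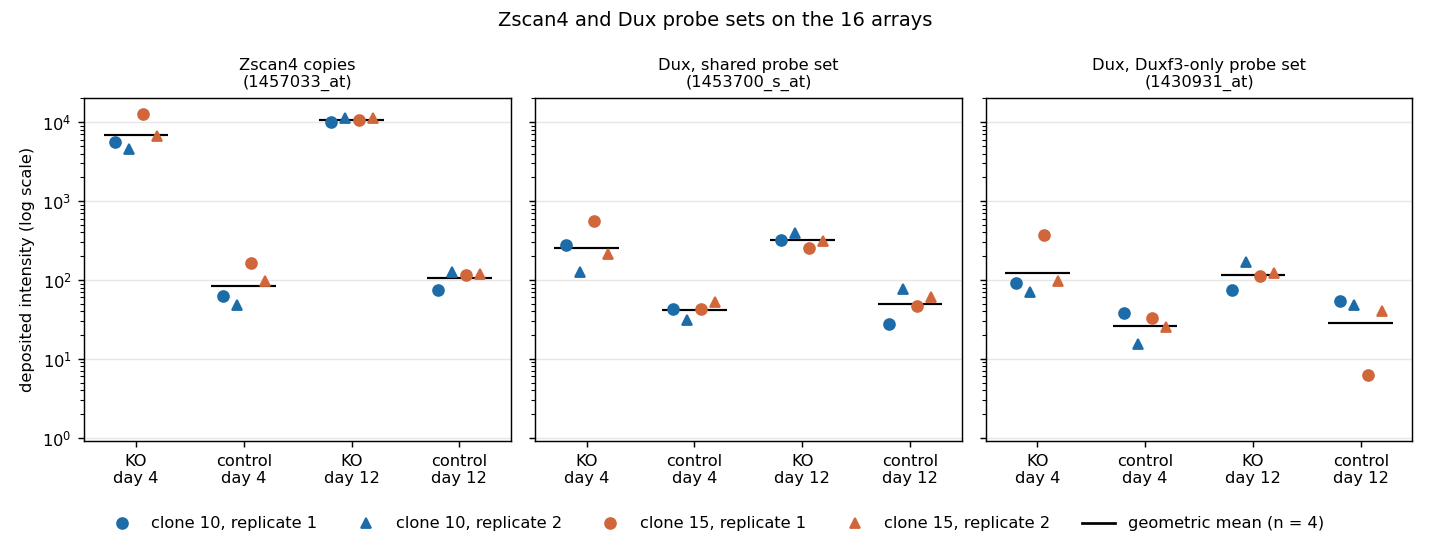
Deposited intensity (log axis) of the 3 probe sets on each of the 16 arrays, KO left of control at each day, with clone by colour, replicate number by shape and a line at the geometric mean of the 4 arrays. Every KO array lies above every control array in each panel, and the KO day 4 array of clone 15 replicate 1 is the highest of its group in all 3.

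The SD of the Zscan4 difference over pairs was smaller than that of the Zscan4 level over arrays of both clones and days. KO and control arrays of one clone, day and replicate number differed by 69.3 to 133 times, and the SD of the 8 log2 differences was 0.27. The SD of the log2 level itself was 0.55 over the 8 KO arrays and 0.59 over the 8 control arrays. At day 4, the array of clone 15 replicate 1 was the highest of its group in KO cells (12881) and also in control cells (166), and the array of clone 10 replicate 2 was the lowest in KO cells (4587) and also in control cells (48.2). For the shared Dux probe set the SD of the pair differences was 0.65, against a level SD of 0.63 over KO and 0.48 over control arrays, and for the Duxf3-only probe set it was 1.198, against 0.78 over KO and 1.04 over control arrays. The level SDs include differences between clones and days, which a difference within a pair takes out, so these SDs are unlike measures. The labels do not say what arrays of one replicate number share. No test was made of these spreads.

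**Figure D2:**
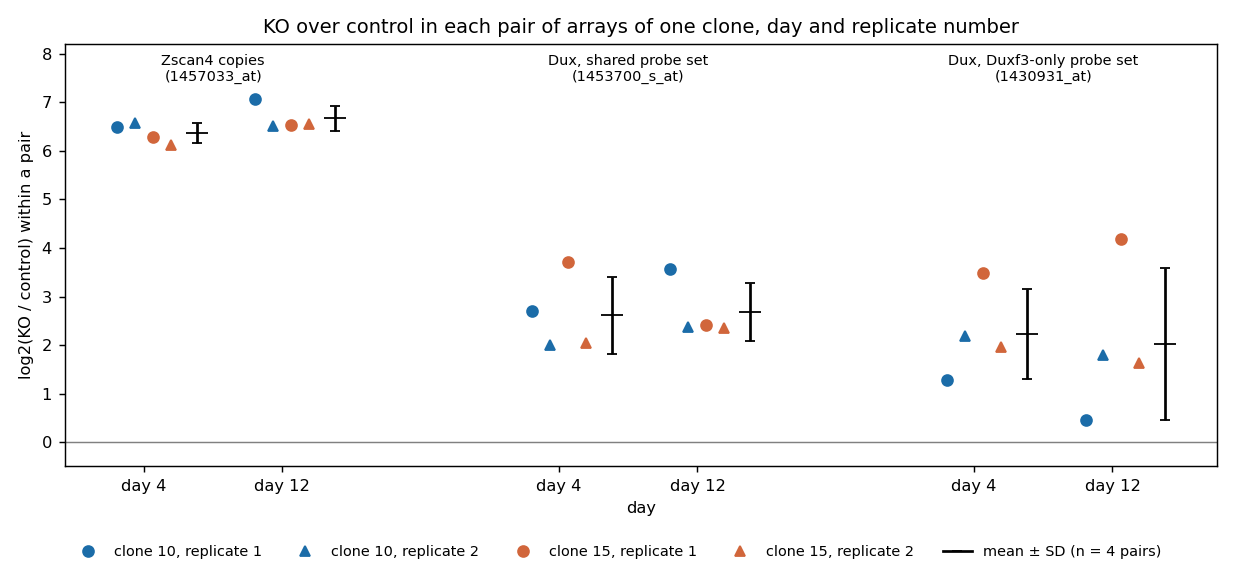
Log2 of KO over control intensity within each pair of arrays of one clone, day and replicate number, for the 3 probe sets at day 4 and day 12, with the mean and SD of 4 pairs in black. Zscan4 pairs lie between 6.11 and 7.06, the shared Dux pairs between 2.01 and 3.70, and the Duxf3-only pairs between 0.46 and 4.19.

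Comparisons other than KO against control at either day were tested with limma over all 45037 probe sets, with Benjamini-Hochberg adjustment. None of the 3 probe sets passed 0.05 in any of them. These comparisons reuse the arrays by which these genes were chosen, so they are not independent of that choice. The difference between KO and control was 0.30 ± 0.42 log2 (SE) larger at day 12 than at day 4 for Zscan4 (limma adjusted p = 1.0), 0.06 ± 0.56 larger for the shared Dux probe set and -0.21 ± 0.97 for the Duxf3-only probe set. No probe set of the array passed that comparison (0.0%), with 1859 at an unadjusted p under 0.05. Within KO cells, Zscan4 was 0.65 ± 0.30 log2 higher at day 12 than at day 4 (limma adjusted p = 0.383, unadjusted p = 0.0492), a comparison that 1.22% of probe sets passed. Within control cells it was 0.35 ± 0.30 higher at day 12 (limma adjusted p = 0.718), where 0.402% of probe sets passed. The KO day 4 arrays of Zscan4 spread over an SD of 0.64 log2 and the KO day 12 arrays over 0.09, a difference in spread that was not tested.

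The Dux day differences were smaller than their errors. In KO cells the shared Dux probe set was 0.32 ± 0.40 log2 (SE) higher at day 12 than at day 4 and the Duxf3-only probe set was -0.11 ± 0.69 on the same scale. In control cells the values were 0.26 ± 0.40 for the shared Dux probe set and 0.10 ± 0.69 for the Duxf3-only probe set. All 4 had limma adjusted p-values from 0.808 to 0.974, and the errors leave room for changes in either direction.

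Between clones, the untreated Zscan4 level of clone 15 minus that of clone 10 was 0.74 ± 0.27 log2 over both days (SE), which did not pass (limma adjusted p = 0.937, unadjusted p = 0.0234). The clone means were 131 in clone 15 and 55.3 in clone 10 in control day 4 cells, and 117 in clone 15 and 99.7 in clone 10 in control day 12 cells. The untreated clone difference was 1.202 ± 0.39 at day 4 and 0.28 ± 0.39 at day 12, neither past the test (limma adjusted p = 0.803 and 1.0). Over the array, 0.0355% of probe sets differed between the untreated clones. Among KO cells the means were 9763 in clone 15 against 5104 in clone 10 at day 4, and 10922 in clone 15 against 10674 in clone 10 at day 12, a difference of 0.45 ± 0.27 over both days. The difference between KO and control was -0.29 ± 0.39 log2 in clone 15 relative to clone 10 (limma adjusted p = 1.0), in a comparison that no probe set passed (0.0%) and 1605 met at an unadjusted p under 0.05.

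Dux gave no clone difference past the test either. In untreated cells the shared Dux probe set was 0.30 ± 0.41 log2 higher in clone 15 than in clone 10 and the Duxf3-only probe set was -0.73 ± 0.62 (SE). The difference between KO and control in clone 15 relative to clone 10 was -0.03 ± 0.58 for the shared Dux probe set and 1.39 ± 0.88 for the Duxf3-only probe set. All 4 had limma adjusted p-values of 1.0. The 1.39 includes the control array at 6.17 and the KO array at 370, both of clone 15.

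Among the 8 KO arrays, Dux and Zscan4 went together. Over KO arrays alone, log2 intensity of the shared Dux probe set correlated with that of Zscan4 at Pearson r = 0.84 (exact permutation p = 0.00389, two-sided, adjusted 0.0192) and Spearman rho = 0.83 (exact permutation p = 0.0154), and r was 0.81 without the 2 arrays farthest from the median of Zscan4. For the Duxf3-only probe set r was 0.68 (exact permutation p = 0.0508, adjusted 0.116) and rho 0.93 (exact permutation p = 0.00223), with r = 0.62 without the 2 farthest arrays. The same was done for the 17 probe sets of 2-cell stage genes described below and for control arrays, 38 relations in all, and the adjusted values are over these. The relations were chosen after the data had been seen, they pool both days and both clones, and a single day has only 4 KO arrays, too few for a correlation. The permutations exchanged arrays freely between days and clones. Their p-values therefore do not set aside differences between days or clones that the probe sets share. Over KO arrays r was above 0 for 19 of 19 probe sets with a median of 0.90, and 12 had an adjusted p under 0.05. Over control arrays r was above 0 for 11 of 19 with a median of 0.07, and for Pearson r the exact permutation test gave none with an adjusted or an unadjusted p under 0.05. By Spearman rho over control arrays, Usp17la had an unadjusted exact permutation p of 0.0458 (rho 0.74). Both Dux probe sets and the 2-cell list were chosen with the difference between KO and control known. Several of these genes had control means under the 25th percentile, among them Gm20767, Ubtfl1 and Tcstv1. At such values r has little signal to measure, so r over control arrays cannot be set against r over KO arrays. The difference between them was not tested.

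**Figure D3:**
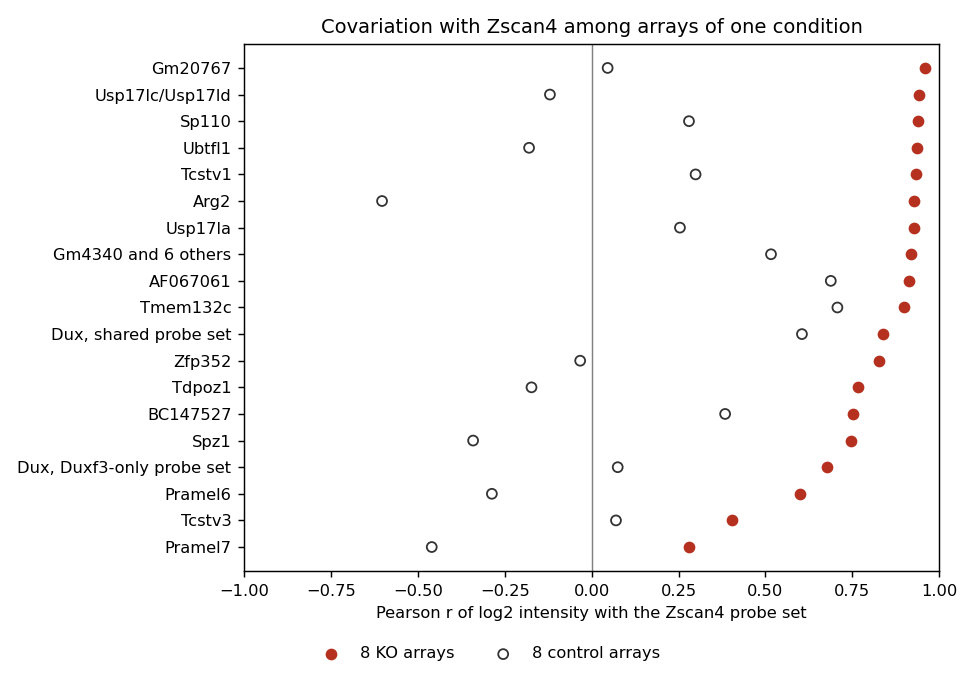
Pearson r of log2 intensity with the Zscan4 probe set for 2 Dux probe sets and 17 probe sets of 2-cell stage genes, over the 8 KO arrays (filled) and the 8 control arrays (open). Every filled point lies above 0, from 0.28 to 0.96, whereas the open points run from -0.60 to 0.71.

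Genes of the 2-cell stage that have been linked to Dux were higher in KO cells as well. Of 28 such genes listed, 19 were measured by 17 probe sets. At day 4, 8 of the 17 passed limma with an adjusted p under 0.05 and were higher in KO, and 0 were lower, where 0.226% of all probe sets were higher and 0.0155% lower. With every value under the 25th percentile raised to it, 14 of the 17 were higher at day 4. At day 12, 15 of the 17 were higher and 0 lower, where 0.877% were higher and 0.335% lower. Their median log2 difference was 2.95 at day 4 and 4.23 at day 12, beside medians of -0.01 and -0.02 over all probe sets. With low values raised the list medians were 2.34 and 3.02, so their size depends on control values under the 25th percentile. The list was drawn up with earlier results of these arrays known, so it is not independent evidence of the direction.

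Gm20767, of the Tcstv gene cluster, averaged 1200 ± 633 in KO and 2.99 ± 1.62 in control day 4 cells (SD, n = 4 each), a log2 difference of 8.73 (limma adjusted p = 5.08e-05), and 2096 ± 137 in KO and 11.2 ± 13.6 in control day 12 cells, a difference of 8.23 (limma adjusted p = 5.29e-05). Its controls lie under the 25th percentile, and with such values raised to it the differences were 5.28 and 6.17. AF067061, of the same cluster, rose by 7.59 and 8.90 log2 (6.57 and 7.99 with low values raised). A probe set that carries Gm4340 and Gm6763 among 7 symbols rose by 6.83 and 6.94, with 21291 ± 2337 in KO and 188 ± 101 in control day 12 cells. Ubtfl1, an HMG box gene of the early embryo, rose by 6.32 and 5.65 (4.03 and 4.54 with low values raised), and Usp17la, a deubiquitinase gene, by 5.76 and 6.06. Zfp352, a zinc finger gene of the 2-cell embryo and a direct Dux target, rose by 2.62 and 3.19, Tmem132c by 2.40 and 3.02, and Sp110, a nuclear body gene, by 1.70 and 2.71. These 8 probe sets passed at both days in this fit.

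A further 7 passed at day 12 alone in this fit, among them Spz1 (log2 difference of 2.23 at day 4, limma adjusted p = 0.0584, and 4.23 at day 12), the probe set shared by Usp17lc and Usp17ld (2.57 and 5.09) and Arg2, an arginase (3.59 and 4.46). With low values raised, their day 12 differences were 2.05, 3.94 and 3.74. Whether their difference depended on the day was covered by the comparison above, which no probe set passed. Arg2, Tcstv1, Tcstv3, Tdpoz1 and BC147527 stood close to the threshold, and their day 12 calls were lost when any of 14, 11, 14, 13 and 7 of the 16 arrays was left out. With low values raised, all 5 passed at day 12. Pramel6 and Pramel7, PRAME-like genes, did not pass, with log2 differences of -2.33 and 0.65 for Pramel6 and 0.24 and -0.37 for Pramel7 at the 2 days. At day 4 Pramel6 went the other way on every array, at 9.56 to 28.6 in KO and 55.8 to 118 in control cells. It passed at day 4 as lower in KO without the control day 12 array of clone 10 replicate 2 (limma adjusted p = 0.0102).

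**Figure D4:**
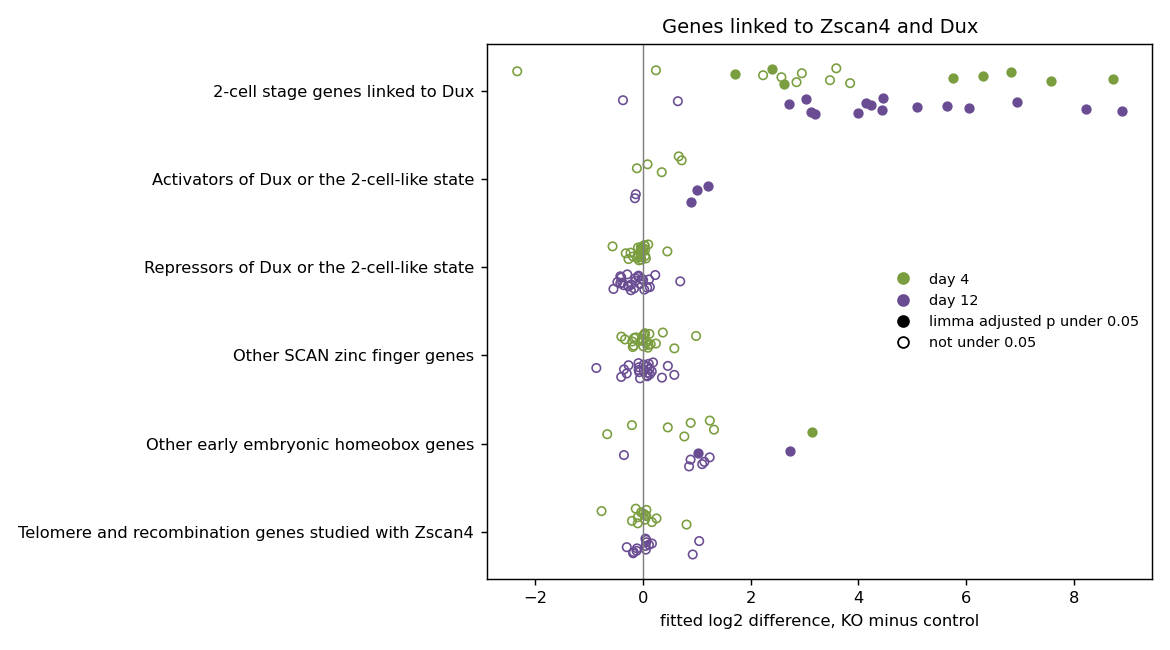
Fitted log2 difference, KO minus control, of each probe set of 6 gene lists at day 4 (green) and day 12 (purple), filled where the limma adjusted p was under 0.05. The 2-cell stage genes spread from -2.33 to 8.90, while the repressors, the other SCAN genes and the telomere genes have no filled point.

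Among known activators of Dux or of the 2-cell-like state, 5 were measured. None passed limma at day 4, where 0.226% of all probe sets were higher, and 3 passed at day 12, all higher in KO, where 0.877% were higher. Like the 2-cell list, this list and those below were drawn up with earlier results of these arrays known. Their counts are therefore not independent evidence. Nelfa passed at day 4 too with low values raised (limma adjusted p = 0.0328) or with a trend on mean intensity (limma adjusted p = 0.0188), at a log2 difference of 0.72 against an adjusted p of 0.132 without them. Dppa2, a chromatin protein that binds the Dux promoter, averaged 4885 ± 369 in KO and 2649 ± 496 in control day 12 cells (SD, n = 4 each), a log2 difference of 0.90 ± 0.16 (SE, limma adjusted p = 0.0163). Its day 4 means were higher in both, at 6182 in KO and 4846 in control cells. Within control cells Dppa2 differed by -0.89 log2 between day 12 and day 4 (limma adjusted p = 0.0371), so its KO level at day 12 was not above its control level at day 4 by much. Nelfa, a subunit of the negative elongation factor, averaged 4185 ± 506 in KO and 2092 ± 202 in control day 12 cells, a difference of 0.998 ± 0.16 (limma adjusted p = 0.00946). Tbx3, a T-box factor, differed by 1.22 ± 0.24 (limma adjusted p = 0.0294). Dppa4, the partner of Dppa2, and Dppa3 did not pass, with day 12 differences of -0.15 and -0.13. The count fell to 1 when any of 4 single KO or control day 12 arrays was left out, namely either KO array of clone 10 or the replicate 2 array of clone 15 in KO or in control cells.

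Of the 26 known repressors measured, among them Trim28, Setdb1, Smchd1, Kdm1a, Chaf1b and the PRC1.6 members Pcgf6, Mga, Max, L3mbtl2 and E2f6, 0 passed limma at day 4 and 0 at day 12. Over all probe sets 0.226% were higher and 0.0155% lower at day 4, and 0.877% higher and 0.335% lower at day 12, so a count of 0 among 26 is near that share. E2f6 came nearest, with a log2 difference of 0.46 at day 4 and 0.69 at day 12 (limma adjusted p = 0.0999). Its day 12 difference passed with low values raised (limma adjusted p = 0.0372), with a trend on mean intensity (0.0295) and over the brighter probe sets alone (0.0482). It also passed at day 12 with a replicate block (0.0192) and with replicate number within each day as a term (0.00198). With that term Lin28a (limma adjusted p = 0.0121) and L3mbtl2 (0.0470) passed at day 12 too, both lower in KO. The median of the list was -0.04 at day 4 and -0.15 at day 12.

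Of 24 SCAN zinc finger genes other than Zscan4, 0 passed limma at either day, near the shares over all probe sets just given, with medians of 0.02 and 0.04. Zkscan16 came nearest at day 4 with 0.99 (limma adjusted p = 0.0857), and it passed with low values raised (0.0340), over the brighter probe sets alone (0.0389) and without the KO day 4 array of clone 15 replicate 2 (0.0444). Of 8 probe sets of other early homeobox genes, 1 passed at day 4 and 2 at day 12. The day 4 call was a probe set shared by Obox1 and Obox2, at 19.7 ± 8.50 in KO and 2.18 ± 0.74 in control cells, both under the 25th percentile, and with such values raised its log2 difference was 0.03. Crxos differed by 2.73 at day 12 (limma adjusted p = 0.0125) and Obox6 by 1.02 (limma adjusted p = 0.0490). The homeobox count at day 12 was 0 without the KO day 12 array of clone 10 replicate 1, and it was 0 or 1 without any of 13 single arrays. Of 14 telomere and recombination genes studied with Zscan4, among them Tert, Terf1, Terf2, Dmc1 and Spo11, 0 passed limma at either day, with medians of 0.02 and 0.05, again near the shares over all probe sets.

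Other Dux family transcripts followed unevenly. A probe set of the Duxbl genes, which are Dux relatives on another chromosome, read 1503 and 1498 in clone 10 and 2013 and 1388 in clone 15 in KO day 4 cells, against 887 and 737 in clone 10 and 806 and 811 in clone 15 in control day 4 cells. In KO day 12 cells it read 1893 and 1937 in clone 10 and 1642 and 1222 in clone 15, against 1028 and 811 in clone 10 and 1030 and 717 in clone 15 in control day 12 cells. Another Duxbl probe set stood for these genes in the homeobox list above, and the one read here was added after its values were seen. Its groups did not overlap at either day. Over all probe sets every KO array lay above every control array for 2.35% at day 4 and 5.3% at day 12. The log2 difference was 0.97 ± 0.19 (SE, limma adjusted p = 0.0683) at day 4 and 0.90 ± 0.19 (limma adjusted p = 0.0401) at day 12, the day 12 call being lost when any of 13 of the 16 arrays was left out. The other Duxbl probe sets did not pass, at 0.77 and 0.86 for one and 0.11 and 0.85 for another, although the day 12 difference of 0.86 passed with a trend on mean intensity (limma adjusted p = 0.0333). A probe set for Gm4981 alone averaged 27.6 in KO and 37.96 in control day 4 cells and 28.4 in KO and 11.2 in control day 12 cells, near or under the 25th percentile, and did not pass.

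Over all 16 arrays, the 10 probe sets most like Zscan4 were ranked by Pearson correlation of log2 intensity among 24863 probe sets with a mean log2 intensity of at least 6, and 3 of the 10 hold genes of the 2-cell list above. The highest, at r = 0.997, carries Gm4027, BB287469 and Eif1a, and averaged 5731 in KO and 61.1 in control day 4 cells and 8067 in KO and 70.8 in control day 12 cells. Next came the probe set of Gm13057, Gm13040 and Gm13043 (0.992), the Gm4340 probe set (0.992), AF067061 (0.990), Usp17la (0.983), 3110040M04Rik (0.981), Syce1, a synaptonemal complex gene (0.980), the Gm428 probe set (0.980), Scd3, a fatty acid desaturase (0.978), and Gm4850 (0.977). Such values are carried mainly by the gap between KO and control that all of them share. With the 8 clone and group means taken out, r was 0.88 for AF067061, 0.88 for Usp17la, 0.84 for the Gm13057 probe set and 0.82 for 3110040M04Rik, but 0.02 for the Gm4340 probe set and -0.24 for Syce1. The same deviations gave r = 0.74 between Zscan4 and the shared Dux probe set and 0.53 between Zscan4 and the Duxf3-only probe set.

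Ranked by the deviations alone, the leading probe sets were other genes, among them Peg10 (r = 0.973), Trim37 (0.971), Atp11a (0.968), Neu1 (0.961) and Gulo (0.957). Their KO minus control differences ran from -0.52 to 0.37 log2, so their levels did not follow OHT treatment as Zscan4 did. These 16 arrays leave 8 deviations free, and r this high among 24863 probe sets is given as a description. For the shared Dux probe set the most similar over 16 arrays were the Gm13057 probe set (0.960), the Gm4027 probe set (0.953), Adcy2 (0.953), Herc4 (0.953) and Igfbp3 (0.952). For the Duxf3-only probe set they were the probe set of Gm1995 and Gm7104 (0.898), Gm11545 (0.893), Zfp213 (0.891), Rimklb (0.888) and Igfbp3 (0.886). Zfp213 is also one of the SCAN genes above, where a brighter probe set stood for it. The KO minus control differences at day 4 and day 12 were 1.04 and 0.61 log2 for the probe set ranked here and 0.37 and 0.19 for the brighter one. Of the 25 gene symbols on the 10 probe sets most like Zscan4 over 16 arrays, 17 had a promoter in the RefSeq table and 0 held TGATNNAATCA there. The palindrome was found in 0.177% of all mouse promoters, so 0 among 17 is near that share and nothing is read from it.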

How the data were processed

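The deposited table gives 1 linear intensity per probe set and array, which the authors made with Affymetrix Expression Console and RMA per the submitters' processing notes, with no version stated. The sorted values are the same on all 16 arrays, as quantile normalization leaves them, and normalizing them again moved no value. The design text says 430A 2.0, but the table has 45101 probe sets, as the 430 2.0 array does. Of these, 64 AFFX controls were left out. Neither detection calls nor scanner files were used, and the number of arrays limits the precision.

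Deposited intensities were log2-transformed here with no offset and fitted with limma 3.58.1 (R 4.3.3), 4 group means with the clone as a term, or 8 clone and group means for contrasts of clones, with empirical Bayes moderation and Benjamini-Hochberg adjustment over 45037 probe sets. The fit was tested on simulated data. Exact permutation tests, summaries and figures used Python 3.11.15, numpy 2.4.6, pandas 2.3.3 and matplotlib 3.10.9, and promoters were aligned with Biopython 1.88. The platform annotation gave 34945 probe sets a single gene symbol, 932 several and 9160 none. A gene of a list with several probe sets was represented by the one with the highest mean over all arrays.

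The members and gene lists were chosen with earlier results of these data known. Genes named are Rybp, the members, the 10 probe sets most like Zscan4 by each measure (5 for Dux), and list members past an adjusted p of 0.05 in KO against control, with examples of those that were not. The Duxbl probe sets were added after their values were seen.

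Same-numbered KO and control arrays of one clone and day had residual correlations of -0.07 to 0.06 over all probe sets. Over those with a mean log2 of at least 8, a limit chosen after the first values were seen, they were 0.77 to 0.80 at day 4. At day 12 they were 0.19 to 0.53. The main fit therefore does not pair the arrays by number. Pairs by number serve above as a description, and the replicate block is the alternative that uses them in the fit. Alternatives were raised low values, a replicate block, a filter on dim probe sets, a trend on intensity and each array left out, and, chosen after seeing the data, replicate number within each day as a term.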

Additional observations from a re-analysis of the deposited data

Results flagged for a closer look

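The Duxf3-only probe set had an intensity of 370 on the KO day 4 array of clone 15 replicate 1, far from the other 3 KO day 4 arrays at 70.3, 92.4 and 97.2, with a gap beyond Dixon's 95% critical value for 4 samples. It was the only one of 12 groups checked, and since chance gives about 1 in 20 for each group, a single such array among 12 groups is not unusual. The same array was also the highest of its group for the shared Dux probe set (551) and for the Zscan4 copies (12881), without passing that limit. Left out, the day 4 log2 difference between KO and control was 1.65 for the Duxf3-only probe set, 2.26 for the shared Dux probe set and 6.14 for Zscan4.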

How the results depend on the processing

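Every KO minus control difference of the 3 probe sets kept its sign under each alternative run, between 6.14 and 6.86 log2 for Zscan4, 2.26 and 2.96 for the shared Dux probe set and 1.23 and 2.53 for the Duxf3-only probe set. No tested contrast of a member reached an adjusted p under 0.05 under any alternative, the lowest being 0.155 for Zscan4 in KO day 12 against KO day 4. Of the Dux contrasts, all of which missed the test, 7 of 10 also changed sign with single arrays left out. For the shared Dux probe set these were the KO effect at day 12 minus day 4 (-0.25 to 0.42), the control day difference (-0.019 to 0.52), the untreated clone difference (-0.073 to 0.67) and the KO effect by clone (-0.40 to 0.34). For the Duxf3-only probe set they were the KO effect at day 12 minus day 4 (-1.001 to 0.37), the control day difference (-0.23 to 0.89) and the KO day difference (-0.41 to 0.47). With a replicate block, the SE of the Zscan4 difference between KO and control was 0.13 around an unchanged 6.37 and 6.67, its KO effect at day 12 minus day 4 stayed at 0.30 (limma adjusted p = 0.789), and the 2-cell list had 7 higher at day 4, Sp110 being lost (limma adjusted p = 0.0683), and 12 at day 12, while E2f6 passed at day 12 (limma adjusted p = 0.0192). With replicate number within each day as a term, E2f6 also passed at both days (limma adjusted p = 0.0499 and 0.00198), Zkscan16 (0.0216) and Obox6 (0.0458) passed at day 4, and L3mbtl2 (0.0470), Lin28a (0.0121) and Zkscan7 (0.0442) passed at day 12 with lower values in KO. With low values raised, the 2-cell list had 14 higher at day 4 instead of 8. Single arrays left out gave 8 to 9 at day 4 and 10 to 14 at day 12. The causes were not tested. Dim controls limit the size of the largest differences.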
